A study of Mus musculus with 6 samples.

Results

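The genes followed here were the B7 family and other T cell costimulatory or checkpoint molecules that a macrophage can display, together with the activation marker *Cd69*. The group of 10, *Cd80*, *Cd86*, *Icosl*, *Cd274*, *Pdcd1lg2*, *Vsir*, *Havcr2*, *Lgals9*, *Pvr* and *Cd69*, were taken by symbol and known function from the 55453 genes of the counts table. The rule uses no measured value, but the group was chosen with earlier results of these data known. All 10 were found, and 9 of them were among the 13680 genes with enough counts to be tested. The exception was *Pdcd1lg2*.

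RNA-Seq was available for 6 libraries of bone marrow-derived macrophages (BMDM) from C57BL/6 mice, 3 labelled PP2A KO (PP2A-KO) and 3 labelled Wild Type (WT). The PP2A-KO cells came from LysMcre PP2Ac fl/fl mice, in which Cre recombinase is made under the myeloid Lysozyme 2 promoter and removes the floxed exon 1 of *Ppp2ca*, the gene for the catalytic subunit of the phosphatase PP2A. No Cre or floxed allele is described for the WT mice, so that genotype here covers the deletion, the Cre transgene and any difference between the mouse lines. Both groups were taken as treated with cGAMP, the cyclic dinucleotide that activates STING, as the study's RNA-Seq is described. With no untreated library among the 6, a genotype difference in the response to cGAMP cannot be told apart from a difference present without it. The labels give no treatment, age or sex, and they do not say whether replicates came from separate mice or cultures, so that p-values measure the spread between these libraries.

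A T cell that meets antigen on a macrophage also reads the surface molecules beside it. CD80 and CD86 engage CD28 or CTLA-4, ICOS ligand engages ICOS, and PD-L1 and PD-L2 engage the inhibitory receptor PD-1. Several of these genes are known targets of interferons, which macrophages make when STING is activated, and PD-L1 on macrophages of tumors is a target of cancer immunotherapy.

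The upstream sequences of 3 members are shown because these genes lie at different ends of the results: *Cd274* and *Lgals9* had the highest levels per exon length and were higher in PP2A-KO, and *Havcr2* was the member that was lower. Each stretch is the genomic sequence from 250 to 31 bases before the RefSeq transcription start in GRCm38.p6, read 5′ to 3′ on the strand of the gene. Capitals mark a match to 1 of 4 motifs searched on both strands.
Cd274, chr19:29367188-29367407, forward strand: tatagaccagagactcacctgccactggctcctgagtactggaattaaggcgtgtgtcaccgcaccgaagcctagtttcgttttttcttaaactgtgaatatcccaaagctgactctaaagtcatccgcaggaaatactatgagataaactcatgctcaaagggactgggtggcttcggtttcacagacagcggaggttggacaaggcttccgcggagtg
Lgals9, chr11:78984955-78985174, reverse strand: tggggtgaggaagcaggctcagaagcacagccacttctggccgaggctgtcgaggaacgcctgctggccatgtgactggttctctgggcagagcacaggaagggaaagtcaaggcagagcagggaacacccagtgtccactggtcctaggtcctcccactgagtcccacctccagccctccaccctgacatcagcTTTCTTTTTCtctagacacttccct
Havcr2, chr11:46454681-46454900, forward strand: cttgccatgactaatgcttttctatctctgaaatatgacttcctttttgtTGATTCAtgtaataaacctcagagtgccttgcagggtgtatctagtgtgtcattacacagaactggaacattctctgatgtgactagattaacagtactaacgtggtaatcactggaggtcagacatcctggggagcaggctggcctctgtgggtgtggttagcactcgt

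The motifs were the core of the interferon-stimulated response element (ISRE core, GAAANNGAAA), the gamma-activated site (GAS, TTCNNNGAA), the NF-kB consensus and the AP-1 site (TGANTCA), and the search covered the 250 bases before the start. A RefSeq promoter was matched for 7 of the 10 members, *Cd80*, *Cd274*, *Pdcd1lg2*, *Icosl*, *Vsir*, *Havcr2* and *Lgals9*. The *Lgals9* stretch held an ISRE core on the opposite strand, 55 to 46 bases before the start, a motif present in 2.98% of the 32851 mouse promoters searched. The *Havcr2* stretch held an AP-1 site 200 to 194 bases before the start, and *Cd80* held the same 7 letters 42 to 36 bases before its RefSeq start. The *Cd80* window, chr16:38458683-38458932, lies inside the annotated span of the gene, chr16:38455561-38496335. The windows of *Icosl*, chr10:78069118-78069367, and *Lgals9*, chr11:78984925-78985174, run in part into the annotated spans of their genes. The *Lgals9* stretch shown lies outside its span. The AP-1 site was present in 6.75% of the promoters. *Pdcd1lg2* held the NF-kB consensus 244 to 235 bases before its start, and this motif was present in 3.9% of the promoters. None of the 4 motifs, including GAS with 7.02% of the promoters, was in the windows of *Cd274*, *Icosl* and *Vsir*, which says only that these letters are not in these 250 bases. A match is a description and not a binding site.

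The knockout was seen in the counts of its target. *Ppp2ca* had 47, 33 and 38 counts in the PP2A-KO libraries and 10654, 8913 and 8279 in the WT libraries, a log2 fold change of -7.67 (SE 0.10, FDR = 3.17e-10, edgeR). *Ppp2cb*, the gene for the second isoform of the catalytic subunit, had a log2 fold change of 0.03 (FDR = 0.731). The library totals lay between 35257156 and 47390899 counts, so that 3 counts, taken as the floor, stood for 0.0604 to 0.0909 CPM (counts scaled to library size by TMM, the unit used throughout). Macrophage markers were high in both groups, with summed levels of 8 genes from 8230 to 8422 CPM in PP2A-KO and from 6861 to 7565 CPM in WT. At an FDR under 0.05, 3 of the 8 were higher in PP2A-KO, beside 18.1% of all genes tested. With replicate number as a block, 5 were higher.

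At a false discovery rate (FDR) under 0.05, 6 members were higher in PP2A-KO than in WT, *Cd80*, *Cd86*, *Icosl*, *Cd274*, *Lgals9* and *Cd69*, and 1, *Havcr2*, was lower. Over all 13680 genes tested, 18.1% were higher and 19.0% were lower at this FDR. *Vsir* and *Pvr* did not pass the test. At a stricter rule, a log2 fold change over 1 with an FDR under 0.01, 3 members were upregulated (*Cd69*, *Icosl* and *Cd274*) beside 3.36% of all genes, and 0 were downregulated beside 2.99% of all genes. The count of upregulated members was 2 without WT replicate 2 or 3, where the log2 fold change of *Cd274* was 0.99 and 0.96, and 4 without WT replicate 1, where that of *Lgals9* was 1.08. The libraries of the groups did not overlap for 8 of the 9 tested members, against 50.9% of all genes tested. The median log2 fold change was 0.58 over the 9 members and -0.02 over all genes. In bulk RNA, fewer cells that express a gene and less RNA in each cell cannot be told apart.

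**Figure D1:**
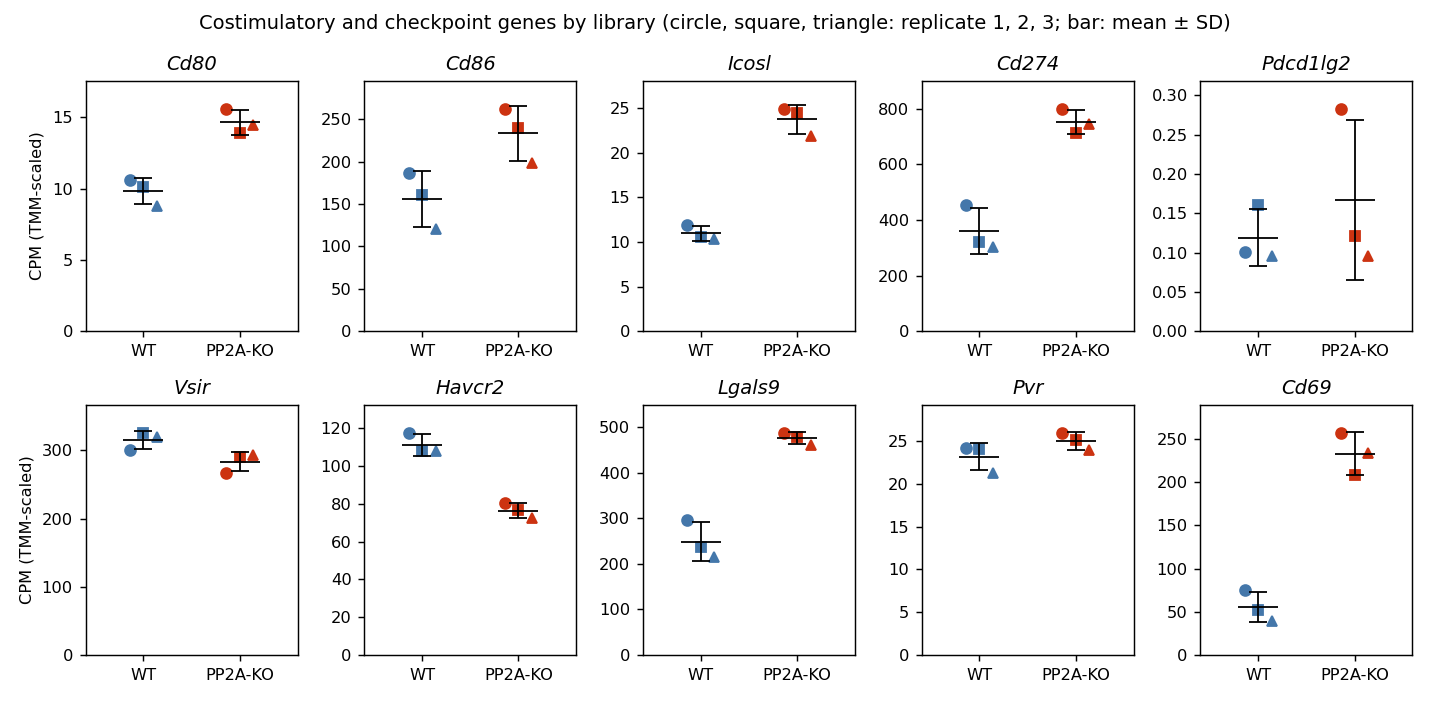
Each panel plots 1 gene in CPM (vertical axis, from 0), with WT libraries in blue, PP2A-KO libraries in red, symbols for replicates 1, 2 and 3, and bars for the mean ± SD. *Cd69* lies at 39.7 to 74.8 CPM in WT and at 209 to 258 CPM in PP2A-KO, whereas *Pvr* and *Pdcd1lg2* overlap between the groups.

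**Figure D2:**
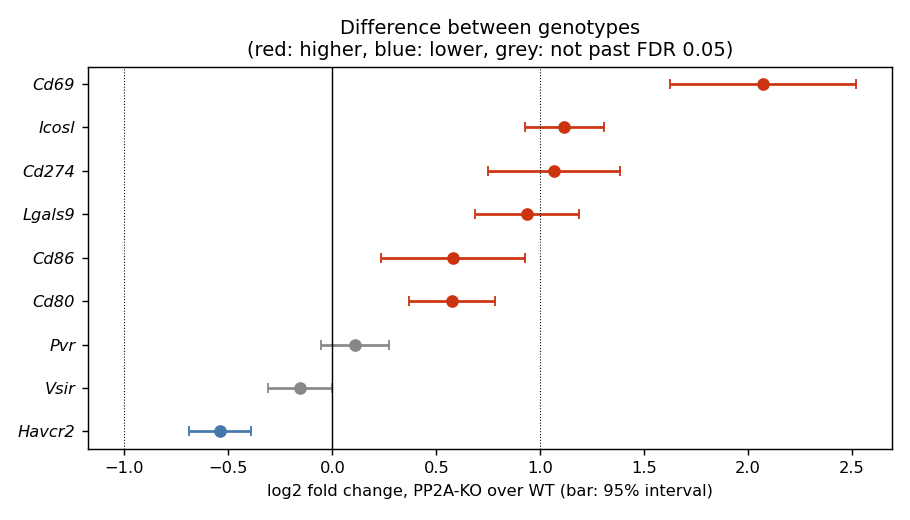
The points are log2 fold changes of PP2A-KO over WT from edgeR for the 9 tested members, bars are 95% intervals, and dotted lines mark -1 and 1. *Cd69* is at 2.07, *Icosl*, *Cd274* and *Lgals9* lie from 0.94 to 1.12, *Cd80* and *Cd86* lie at 0.57 and 0.58, and *Havcr2* is at -0.54.

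*Cd80* and *Cd86* encode the B7 ligands of CD28 and CTLA-4. They lie on chromosome 16 of GRCm38, *Cd80* at chr16:38455561-38496335 on the forward strand and *Cd86* at chr16:36603869-36666081 on the reverse strand. *Cd80* was measured at 15.6, 13.9 and 14.5 CPM in PP2A-KO replicates 1, 2 and 3, and at 10.6, 10.1 and 8.80 CPM in the WT replicates. Every PP2A-KO library was above every WT library. The means were 14.7 ± 0.866 and 9.84 ± 0.939 CPM (SD, n = 3 each), and the log2 fold change was 0.57 (SE 0.09, FDR = 0.00126), or 1.49-fold.

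*Cd86* was measured at 262, 239 and 198 CPM in PP2A-KO and at 187, 161 and 121 CPM in WT. The libraries did not overlap, although the lowest PP2A-KO library was close to the highest WT library, and in both groups replicate 1 was highest and replicate 3 lowest. The means were 233 ± 32.5 and 156 ± 33.0 CPM, with a log2 fold change of 0.58 (SE 0.15, 95% interval 0.23 to 0.93, FDR = 0.0159). The call was lost when PP2A-KO replicate 1 was left out, with a log2 fold change of 0.48 and an FDR of 0.0617. Within replicate numbers, the log2 ratio of PP2A-KO to WT for *Cd86* was 0.49, 0.58 and 0.71, and for *Cd80* it was 0.55, 0.46 and 0.71.

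The balance of the B7 ligands was compared as a ratio of CPM within each library, in which gene length cancels between the genotypes. The log2 ratio of *Cd80* to *Cd86* was -3.97 ± 0.182 in PP2A-KO and -3.96 ± 0.179 in WT (SD, n = 3), a difference of -0.02 with an exact permutation p of 1 (two-sided, adjusted p = 1 over the 3 ratios tested). With 3 libraries against 3, the smallest p this test can give is 0.1.

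*Icosl* encodes the ligand of the costimulatory receptor ICOS and lies at chr10:78069302-78083913 on the forward strand. It was measured at 24.9, 24.4 and 21.9 CPM in PP2A-KO and at 11.9, 10.6 and 10.3 CPM in WT. Each PP2A-KO library was well above the highest WT library, and the spread in each group was small. The means were 23.7 ± 1.62 and 10.9 ± 0.863 CPM, and the log2 fold change was 1.12 (SE 0.08, 95% interval 0.93 to 1.31, FDR = 5.63e-05), or 2.17-fold. Its change in size was above that of 93.6% of the genes tested. *Icos*, the receptor gene, was too low to be tested, at 0.104 CPM in PP2A-KO and 0.129 CPM in WT.

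*Cd274* encodes PD-L1, the main ligand of PD-1, and lies at chr19:29367455-29388095 on the forward strand. It had 33914, 23532 and 31059 counts in PP2A-KO and 22512, 13998 and 12700 in WT, which are 799, 713 and 744 CPM against 453, 322 and 303 CPM. All PP2A-KO libraries lay above the WT libraries, and WT replicate 1 was the highest of its group. The means were 752 ± 43.8 and 359 ± 81.8 CPM, and the log2 fold change was 1.07 (SE 0.14, 95% interval 0.75 to 1.38, FDR = 4.82e-04), or 2.09-fold. The mean level of *Cd274* was above that of 98.3% of the genes tested. An antisense gene, AC119228.1, shares 511 bp of its exons but had only 2 to 11 counts in any library.

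*Pdcd1lg2* encodes PD-L2, the second ligand of PD-1, and starts 22823 bp downstream of *Cd274*, at chr19:29410919-29471161 on the forward strand. In contrast to its neighbor, it had 12, 4 and 4 counts in PP2A-KO and 5, 7 and 4 in WT. The groups overlapped, and a single library, PP2A-KO replicate 1, was apart from the rest. The mean levels were 0.167 ± 0.102 and 0.119 ± 0.0364 CPM, a difference of 0.0476 CPM with an exact permutation p of 0.6 (two-sided, n = 3 against 3). Without the filter on low counts, edgeR gave a log2 fold change of 0.50 (FDR = 0.607), so that a difference was not detectable at this depth.

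The log2 ratio of *Cd274* to *Pdcd1lg2* (CPM + 0.1) was 11.52 ± 0.446 in PP2A-KO and 10.67 ± 0.441 in WT. Their difference of 0.86 had an exact permutation p of 0.2 (adjusted p = 0.3) and rests on the few counts of *Pdcd1lg2*. Per kilobase of exon, the mean level was 208 CPM for *Cd274* and 0.0850 CPM for *Pdcd1lg2* in PP2A-KO, and 99.2 and 0.0607 CPM in WT.

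*Vsir* encodes VISTA, a B7-like inhibitory molecule of myeloid cells, and lies at chr10:60346851-60372684 on the forward strand. It was measured at 267, 290 and 293 CPM in PP2A-KO and at 301, 326 and 320 CPM in WT. The 3 PP2A-KO libraries were below the WT libraries by a narrow margin. The means were 284 ± 14.2 and 316 ± 13.0 CPM, and the log2 fold change of -0.16 (SE 0.07) did not pass the test (FDR = 0.106). A fit that blocked on replicate number again gave a log2 fold change of -0.16, with an FDR of 0.00831, which gives 2 lower members in place of 1.

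*Lgals9* and *Havcr2* encode galectin-9 and TIM-3, a lectin and an inhibitory receptor that is known to bind it and that is found on macrophages as well as on T cells. Both lie on chromosome 11, *Lgals9* at chr11:78962974-78984946 on the reverse strand and *Havcr2* at chr11:46454935-46481255 on the forward strand. *Lgals9* was measured at 488, 479 and 461 CPM in PP2A-KO and at 296, 236 and 215 CPM in WT. The PP2A-KO libraries lay close together and all above the WT libraries. The means were 476 ± 13.8 and 249 ± 42.1 CPM, and the log2 fold change was 0.94 (SE 0.11, 95% interval 0.69 to 1.19, FDR = 2.95e-04), or 1.91-fold.

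*Havcr2* was the member that fell, with 80.2, 76.5 and 72.7 CPM in PP2A-KO and 118, 108 and 108 CPM in WT. No PP2A-KO library reached the lowest WT library. The means were 76.5 ± 3.75 and 111 ± 5.76 CPM, and the log2 fold change was -0.54 (SE 0.07, 95% interval -0.69 to -0.39, FDR = 3.58e-04), so that the WT level was 1.45 times that of PP2A-KO.

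Since the ligand rose and the receptor fell, the ratio of *Lgals9* to *Havcr2* was 6.22 in PP2A-KO and 2.22 in WT. The log2 ratio was 2.64 ± 0.0304 in PP2A-KO and 1.15 ± 0.168 in WT. The difference of 1.49 had an exact permutation p of 0.1, the smallest that 3 libraries against 3 can give, and an adjusted p of 0.3 over the 3 ratios. Since the groups did not overlap for either gene, in opposite directions, the ratio had to separate them. This p therefore adds nothing to the results of the single genes.

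*Pvr* encodes CD155, the nectin-like ligand of TIGIT, CD96 and CD226, and lies at chr7:19903578-19921160 on the reverse strand. It was measured at 26.0, 25.1 and 23.9 CPM in PP2A-KO and at 24.2, 24.1 and 21.3 CPM in WT. The groups overlapped. The means were 25.0 ± 1.06 and 23.2 ± 1.62 CPM, and the log2 fold change was 0.11 with a 95% interval of -0.06 to 0.27 (FDR = 0.276).

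*Cd69* encodes a C-type lectin that appears early on activated leukocytes and holds the sphingosine phosphate receptor S1P1 inside the cell, and it lies at chr6:129267325-129275436 on the reverse strand. It had 10931, 6893 and 9746 counts in PP2A-KO and 3718, 2262 and 1663 in WT, or 258, 209 and 234 CPM against 74.8, 52.0 and 39.7 CPM. The lowest PP2A-KO library was far above the highest WT library. The means were 233 ± 24.4 and 55.5 ± 17.9 CPM, and the log2 fold change was 2.07 (SE 0.20, 95% interval 1.62 to 2.52, FDR = 1.27e-04), or 4.20-fold. It was the largest fold change of the 9 tested members and exceeded in size that of 99.2% of the genes tested. Within replicate numbers the log2 ratio of PP2A-KO to WT was 1.78, 2.00 and 2.56. *S1pr1*, the gene for S1P1, was lower in PP2A-KO, at 82.4 ± 5.89 CPM against 131 ± 9.69 CPM in WT (log2 fold change -0.67, FDR = 3.00e-04), and was named after its value was seen.

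Libraries with the same replicate number resembled each other in these genes. In both genotypes, replicate 1 was the highest library for 8 of the 9 tested members, all but *Vsir*, whereas this held for 22.8% of all genes tested. What the replicate numbers share is not given in the labels, and its part in the levels was not tested. With the number as a block, the 6 higher members and *Havcr2* all had an FDR under 0.05.

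Levels were compared between genes as CPM per kilobase of annotated exon, taken as the union over all transcripts of a gene. This union can exceed the length of a spliced mRNA, so the order depends on the annotation. For *Cd69* it was 6509 bp over 5 transcripts and for *Cd86* 3661 bp over 4, although both had a mean of 233 CPM in PP2A-KO. In WT the order of the mean levels was *Lgals9* (117), *Cd274* (99.2), *Vsir* (63.0), *Cd86* (42.6), *Havcr2* (40.9), *Cd69* (8.53), *Pvr* (3.79), *Cd80* (2.66), *Icosl* (2.37) and *Pdcd1lg2* (0.0607). The ranges of the libraries overlapped for *Lgals9* and *Cd274*, for *Cd86* and *Havcr2*, and for *Cd80* and *Icosl*. Both genes of such a pair were measured in the same libraries, and their difference within libraries was not tested. In PP2A-KO, *Lgals9* and *Cd274* were again highest, at 223 and 208 CPM per kilobase, and their libraries overlapped. *Cd86* (63.7) and *Vsir* (56.6) followed with overlapping libraries, and *Cd69* (35.8) now stood above *Havcr2* (28.1) with no overlap. *Icosl* (5.14), *Pvr* (4.09), *Cd80* (3.96) and *Pdcd1lg2* (0.0850) closed the order, of which *Pvr* and *Cd80* overlapped.

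**Figure D3:**
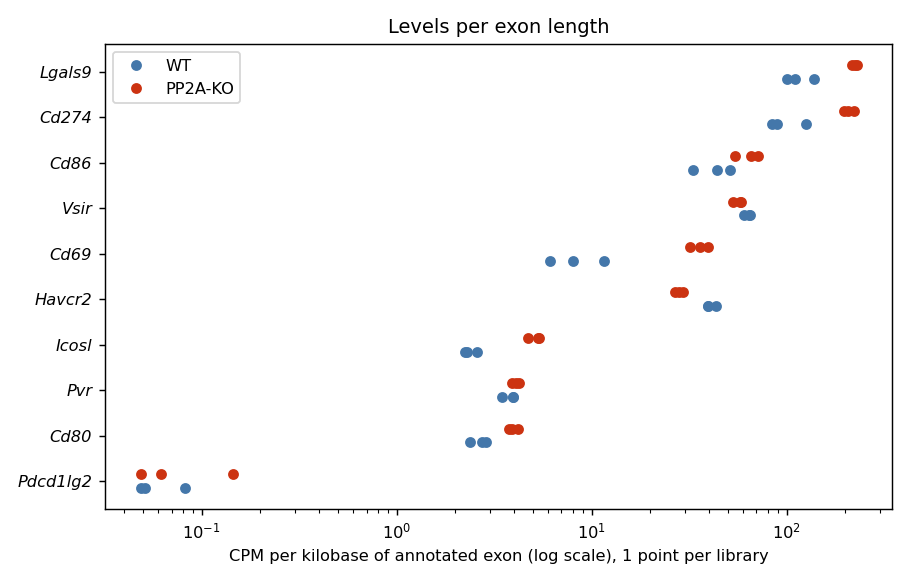
Levels of the 10 genes as CPM per kilobase of annotated exon (horizontal log axis), 1 point per library, WT in blue and PP2A-KO in red. *Lgals9* and *Cd274* reach 216 to 229 and 197 to 221 in PP2A-KO, and *Pdcd1lg2* stays at or under 0.144 in every library.

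Other genes of T cell contact were listed by family, 63 in 6 lists, of which 40 were tested. Of these, 18 were higher and 6 lower in PP2A-KO at an FDR under 0.05, beside 18.1% higher and 19.0% lower among all genes tested, and their median log2 fold change was 0.36. The count of lower genes was 8 with the replicate block and 4 without PP2A-KO replicate 3 or WT replicate 2. The lists were written with earlier results of these data known, and no set test was run.

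Of the tumor necrosis factor (TNF) superfamily costimulators, 6 of 7 tested genes were higher, with 0 lower (18.1% and 19.0% of all genes) and a median of 1.34 for the log2 fold changes. *Cd40*, the receptor through which helper T cells activate macrophages, was measured at 217, 164 and 152 CPM in PP2A-KO and at 61.6, 40.9 and 36.8 CPM in WT. The groups were far apart, with a log2 fold change of 1.94 (SE 0.20, FDR = 1.58e-04). *Tnfsf9*, which encodes the ligand of 4-1BB, rose from 3.23 ± 0.234 to 9.82 ± 1.30 CPM (log2 fold change 1.61, FDR = 5.65e-05), and an antisense gene with 33 to 58 counts shares 14.9% of its exon length. *Tnfsf4*, which encodes OX40 ligand, was low, with 81, 45 and 53 counts in PP2A-KO and 22, 16 and 10 in WT, and rose by a log2 fold change of 2.09 (FDR = 5.29e-04).

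The nectins, relatives of CD155, were listed with related genes, and the 5 tested were *Nectin1* to *Nectin4* and *Cadm1*. Of these, 2 rose and 2 fell, beside 18.1% and 19.0% of all genes, and the median of the log2 fold changes was -0.22. The genes that fell were *Nectin1* and *Cadm1*, and *Nectin3* was not called (FDR = 0.170). *Cadm1* was at 228 ± 8.96 CPM in PP2A-KO against 265 ± 9.61 CPM in WT (log2 fold change -0.22, FDR = 0.0263). *Nectin4* was higher, at 139 ± 9.29 CPM against 62.2 ± 7.46 CPM in WT (log2 fold change 1.16, FDR = 6.23e-05). *Nectin2*, which encodes a ligand that shares receptors with CD155, was also higher, at 33.2 ± 3.55 against 24.5 ± 2.23 CPM (log2 fold change 0.44, FDR = 0.00602). *Nectin1* was lower, at 4.99 ± 1.47 against 8.36 ± 1.96 CPM (log2 fold change -0.75, FDR = 0.0318). The *Nectin1* call was lost without PP2A-KO replicate 2 or 3 or WT replicate 1 or 2, with an FDR of 0.0538 to 0.102.

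Among the relatives of the B7 genes, *Cd276*, which encodes B7-H3, was the only 1 of 8 listed genes with enough counts, at 10.1 ± 1.46 CPM in PP2A-KO and 7.54 ± 1.05 CPM in WT (log2 fold change 0.41, FDR = 0.0380). This call was lost when PP2A-KO replicate 1, PP2A-KO replicate 2, WT replicate 2 or WT replicate 3 was left out, with an FDR of 0.0885 to 0.143, and under upper-quartile scaling (FDR = 0.0560). Of the other galectins and TIM genes, 1 of 4 tested genes rose and 0 fell, beside 18.1% and 19.0% of all genes, and the median of the log2 fold changes was -0.17. With the replicate block 2 fell, *Lgals1* (FDR 0.359 without the block and 0.0208 with it) and *Lgals3* (0.119 and 6.67e-04). The gene that rose was *Lgals8*, which encodes galectin-8, at 299 ± 4.41 against 212 ± 24.3 CPM (log2 fold change 0.50, FDR = 0.00180). The antisense gene *Heatr1*, with 880 to 1762 counts, shares 155 bp of its exons.

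Of the other contact ligands, 5 of 13 tested genes rose and 2 fell, beside 18.1% and 19.0% of all genes, so that the lower genes were near the share of all genes. The median of the log2 fold changes was 0.14. *Icam1*, which encodes the adhesion ligand of the integrin LFA-1, was measured at 284, 242 and 238 CPM in PP2A-KO and at 100.3, 89.4 and 94.2 CPM in WT. The groups did not overlap, and the log2 fold change was 1.43 (SE 0.09, FDR = 3.90e-05). *Cd244a*, a gene of the SLAM family, was higher at a low level (2.38 ± 0.354 against 1.48 ± 0.156 CPM, log2 fold change 0.69, FDR = 0.0114), a call that was lost without PP2A-KO replicate 1 (FDR = 0.0527). *Ceacam1*, which encodes an adhesion molecule of the carcinoembryonic antigen family, was lower, at 8.30 ± 0.380 against 13.6 ± 0.465 CPM (log2 fold change -0.71, FDR = 2.00e-04).

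Of the receptors for these ligands, listed together with *S1pr1*, 10 of 19 were tested. Of these, 3 rose and 2 fell, beside 18.1% and 19.0% of all genes, which for so few genes is close to the share of all genes. The 2 that fell were *S1pr1*, whose product is a receptor of sphingosine phosphate, and *Cd28*. *Cd28* was at 47.3 ± 4.33 CPM in PP2A-KO and 58.3 ± 1.59 CPM in WT (log2 fold change -0.30, FDR = 0.0105). The median of the log2 fold changes was 0.02. *Pdcd1*, which encodes PD-1, had 22, 16 and 23 counts in PP2A-KO and 8, 9 and 4 in WT (log2 fold change 1.72, SE 0.33, FDR = 0.00317). Every WT library was under the minimum count of 10, so *Pdcd1* passed the filter only through PP2A-KO, and its call is not taken as a result. It is 1 of the 3 that rose, and it was not tested when 10 counts were required in every library. *Lag3*, the gene of another inhibitory receptor, had 35, 24 and 47 counts against 18, 14 and 18 (log2 fold change 1.27, FDR = 0.00507). Both were separated between the groups, but neither had more than 47 counts in a library. *Itgal*, which encodes a subunit of LFA-1 and so a partner of ICAM-1, was abundant, at 182 ± 25.2 CPM in PP2A-KO and 89.9 ± 11.4 CPM in WT (log2 fold change 1.01, FDR = 2.79e-04).

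**Figure D4:**
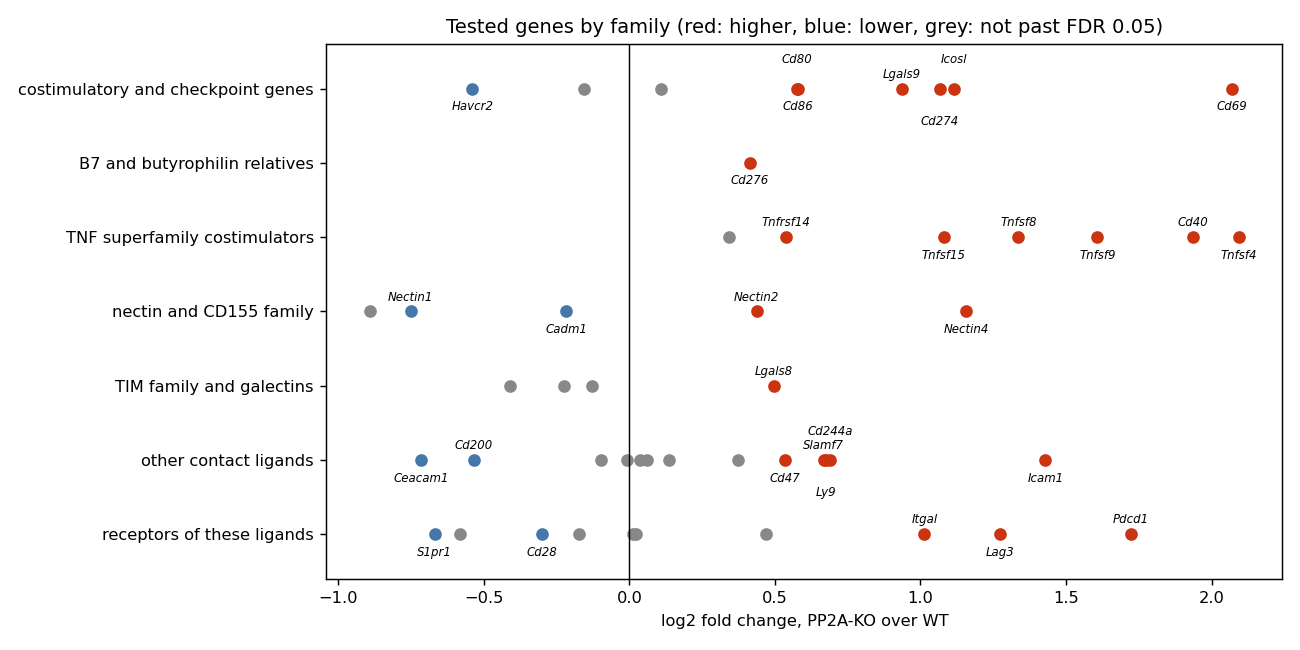
Log2 fold changes of PP2A-KO over WT (horizontal axis) for each tested gene, 1 line per family, with genes at an FDR under 0.05 in red (higher) or blue (lower) and the rest in grey. The 7 TNF superfamily costimulators all lie above 0, with 6 in red. The line of the receptors spreads from -0.67 (*S1pr1*) to 1.72 (*Pdcd1*, which passed the filter on low counts only through PP2A-KO).

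Markers of other cells were read beside these results. Summed levels of the T cell markers were 1.44 to 1.73 CPM in PP2A-KO and 0.740 to 1.15 CPM in WT, *Cd8a* was at 0 in every library, and 3 of the 6 markers had at most 3 counts in any library. The 1 T cell marker with enough counts, *Lck*, was higher in PP2A-KO (log2 fold change 0.90, FDR = 0.0112). The NK cell markers summed to 0.519 to 0.697 and 0.382 to 0.506 CPM, the B cell markers to 0.990 to 1.56 and 0.668 to 0.805 CPM, the neutrophil markers to 0.839 to 0.939 and 0.664 to 0.907 CPM, and the mast cell or eosinophil markers to at most 0.360 CPM. *Ly6g* and *Mcpt4* were at 0 in every library. Dendritic cells carry many of the same costimulatory genes. The 6 dendritic cell markers summed to 2.18 to 3.16 CPM in PP2A-KO and 1.24 to 2.05 CPM in WT. Of the 4 tested, 2 were higher in PP2A-KO, *Clec9a* and *Siglech*, beside 18.1% of all genes. These were low, with at most 54 counts of *Clec9a* and 29 of *Siglech* in a library. *Flt3* (FDR = 0.791) and *Ccr7* (FDR = 0.596) were not called. All 4 fibroblast markers were lower in PP2A-KO, beside 19.0% of all genes, with sums of 22.7 to 33.4 CPM against 74.9 to 118 CPM. The part of these cells in the members' differences was not tested.

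For the 3 members past the stricter rule, the genes with the most similar pattern were sought by the root mean square difference of log2(CPM + 0.1), centred over the 6 libraries, among 11436 genes with a mean of at least 1 CPM. *Cd274* was most like *Ifi203* (0.0267), *Ifit3* (0.0374) and *Mndal* (0.0403). *Icosl* was most like AC168977.1 (0.0287), *Rab20* (0.0391) and *Tapbpl* (0.0403), and *Cd69* was most like *Gm1966* (0.0893), *Tgtp2* (0.11) and *Il12rb1* (0.123). These are likenesses over 6 libraries of 2 genotypes and carry no test.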

How the data were processed

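The authors deposited 1 table of counts per gene for the 6 libraries, whole numbers without normalization, made from poly(A) RNA sequenced in pairs with a directional kit. The submitters' processing notes name fastp 0.20.0, kallisto 0.46.1, STAR 2.7.1a, HTSeq 0.11.2, edgeR 3.34.0 and limma 3.48.3, and the builds mm10 and GRCm38. The annotation release and strand setting are not given in the sources used here, so reads of antisense neighbors could have been counted with a gene. Coordinates and exon lengths came from GENCODE M21, which holds 98.3% of the symbols. Shared 50-base windows with transcripts of other genes made up at most 1.68% of a member (*Cd274*).

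The count test was run with edgeR 4.0.16 (R 4.3.3). Low genes were removed with filterByExpr (minimum count 10, minimum total 15), scaled by TMM (factors 0.910 to 0.938 in PP2A-KO, 1.049 to 1.097 in WT) and compared between genotypes by the quasi-likelihood test (glmQLFit, glmQLFTest), with Benjamini-Hochberg adjustment (FDR) over 13680 genes. CPM used the TMM-scaled totals, and pair ratios used a pseudocount of 0.1 CPM and exact permutation tests. Floors of 3 counts cover counting error only.

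Genotypes and replicate numbers came from the labels. Deviations from the group means correlated between libraries of the same number by 0.323, 0.171 and 0.362 across genes, which are not independent. The number was therefore used as a block in an alternative fit. The main fit and the exact permutation tests used genotype only and ignored the number. No library pair of a group agreed within counting noise. Alternatives tried were scaling by RLE or by the upper quartile, all genes kept, genes kept only with 10 counts or more in each library, a replicate block, DESeq2 1.42.0, limma-voom (limma 3.58.1), a pseudocount of 1 CPM and each library left out in turn. The members and lists were chosen with earlier results of these data known. Genes named were all members, up to 3 genes per list with the largest change at FDR under 0.05 and no overlap between groups, 3 genes most like each member past the stricter rule, and *Ppp2ca* and *Ppp2cb*. *Icos*, *Cd28*, *S1pr1*, *Cadm1*, *Nectin3*, *Lgals1*, *Lgals3*, *Heatr1* and single marker genes were named after their values were seen.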

Additional observations from a re-analysis of the deposited data

How the results depend on the processing

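Each tested member's fold change was recomputed under 13 alternatives. None of the 117 values changed direction, and 113 kept their side of FDR 0.05. The exceptions were *Cd86*, lost without PP2A-KO replicate 1 (FDR = 0.0617), and *Vsir*, which passed with the replicate block, with upper-quartile scaling (log2 fold change -0.22, FDR = 0.0393) and without WT replicate 1 (-0.19, FDR = 0.0473). The count of members lower in PP2A-KO was therefore 2 with the replicate block and 2 with upper-quartile scaling, and it ran from 1 to 2 over the libraries left out in turn. The count of higher members was 6 under all alternatives, except 5 without PP2A-KO replicate 1. The count at the stricter rule ran from 2 to 4 over the libraries left out. The replicate block changed the call of no other member, and among the listed genes it moved the count of lower genes from 6 to 8, which ran from 4 to 6 over the libraries left out. Over the alternatives the log2 fold change of *Cd69* ran from 1.88 to 2.35, of *Cd274* from 0.96 to 1.27, of *Icosl* from 1.05 to 1.18, of *Lgals9* from 0.84 to 1.08, of *Cd80* from 0.50 to 0.64, of *Cd86* from 0.43 to 0.73, of *Havcr2* from -0.60 to -0.50 and of *Pvr* from 0.04 to 0.14. The small difference in the log2 ratio of *Cd80* to *Cd86* changed sign without PP2A-KO replicate 1 (0.0248), PP2A-KO replicate 2 (0.0417) or WT replicate 3 (0.0753), and ran from -0.124 to 0.0753 over the libraries left out. Depth limited *Pdcd1lg2*, at 4 to 12 counts a library.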
